A study of Mus musculus with 77 samples.

Results

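The mouse gene Sfmbt2 (ENSMUSG00000061186) carries a large cluster of miRNA hairpins of the miR-297, miR-466, miR-467 and miR-669 families in its intron 11, and these miRNAs were followed here in a small limbic region of the brain, the bed nucleus of stria terminalis (BNST), and in blood after chronic social defeat stress (CSDS). Every row whose name began with mmu-miR-297, mmu-miR-466, mmu-miR-467 or mmu-miR-669 was taken. This gave 16 of the 788 miRNAs in the BNST data and 11 of the 299 in the blood data, with 10 in both, 6 in BNST alone and 1, miR-669d-5p, in blood alone. The rows were chosen by their names, with no threshold on a value. The families themselves were taken up with results of these data known, so for the members and for Sfmbt2 the difference between control mice of the 2 strains is given below as a description, with no p, and nothing is read from how many were called in it.

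The data came from male mice of the inbred strains C57BL/6Crl (B6) and DBA/2Crl (D2), which the study's methods write as C57BL/6NCrl and DBA/2NCrl, 8 weeks old on dissection. Defeated mice were subjected to daily confrontations with an aggressor. They were called susceptible when they afterwards avoided a social target, and resilient when they behaved like the same-strain controls, which were kept behind a divider from another control mouse. Tissue was taken 6 to 8 days after the last defeat. For BNST, RNA bound to AGO2, the Argonaute protein that holds a miRNA on its target, was immunoprecipitated from pools of 3 B6 mice, giving 5 control, 5 resilient and 3 susceptible pools for miRNA and 5, 5 and 4 pools for mRNA. Blood cell miRNA and mRNA were sequenced from single mice, with 5 B6 control, 5 B6 resilient, 5 B6 susceptible, 5 D2 control and 5 D2 susceptible mice. No D2 BNST and no D2 resilient blood was analysed here. The BNST and blood miRNA libraries were made with different kits, so levels of the members were compared only within a tissue.

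Many members of these families arose by tandem duplication, and their mature products can differ by a few bases. The cluster is best known from the placenta, where Sfmbt2 is expressed from the paternal allele, and its hairpins are cut from the host transcript. A mature miRNA is named after the arm of the hairpin it comes from (5p or 3p), and its seed, bases 2 to 8, pairs with target mRNAs.

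In the RefSeq annotation of GRCm38.p6, 71 of the 81 hairpin genes of these 4 families lay in intron 11 of Sfmbt2 (transcript start at 10372436 and end at 10595253 on the plus strand of chromosome 2). All 71 were on the same strand as the gene, within 51617 bases (chr2:10466663-10518279). Of the 17 measured members, 16 had their hairpin there. MiR-669c-5p came from Mir669c (chr2:10509296-10509404), miR-467c-5p from Mir467c (chr2:10473931-10474027), miR-467d-5p from Mir467d (chr2:10507630-10507714), miR-467e-5p from Mir467e (chr2:10505721-10505807) and miR-297b-5p from Mir297b (chr2:10511667-10511775). MiR-669d-5p can come from 2 hairpins, Mir669d and Mir669d-2, and miR-466f-3p from 3. The BNST data held a row per hairpin copy, 2 of them for miR-466f-3p (miR-466f-3p-2 and miR-466f-3p-3), and how reads were divided between near-identical copies is uncertain.

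The exception was miR-466q, whose hairpin lay on chromosome 3 (chr3:28419943-28420018, plus strand), outside Sfmbt2. It was the 1 member of the 17 matched in the RefSeq sequence table (GRCm38.p6), and its mature sequence is printed 5′ to 3′ with the seed in capitals, to show the alternating CA repeat that it holds.

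miR-466q: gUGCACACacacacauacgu

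All members in the intron are transcribed in the same direction as their host. The window of 250 bases before to 50 bases after the start of the RefSeq transcript used above (chr2:10372186-10372485, plus strand, GRCm38.p6) is printed because the hairpins lie downstream of it. The capitals mark the 1 match to GCCATNTT, letters recognised by YY1, a DNA-binding protein that is a partner of Sfmbt2; both strands were searched. The same letters occur in 6.05% of the 32851 promoter windows in the table, and a second Sfmbt2 window (chr2:10370201-10370500) had no match.

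Sfmbt2 promoter: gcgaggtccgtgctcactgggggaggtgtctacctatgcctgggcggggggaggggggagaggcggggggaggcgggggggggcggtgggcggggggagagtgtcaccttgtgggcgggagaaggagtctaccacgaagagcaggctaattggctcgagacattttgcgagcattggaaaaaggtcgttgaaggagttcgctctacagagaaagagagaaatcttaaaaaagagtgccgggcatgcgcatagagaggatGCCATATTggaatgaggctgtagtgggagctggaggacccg

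Before the results, 1 mismatch in the D2 blood data has to be stated. Of the 10 D2 mice, 2 had a data column named for another group than their sample label. Mouse ED4_15 was labelled susceptible and named control, and mouse ED4_1 was labelled control and named susceptible. The labels set the groups, as D2 susceptible replicate 2 and D2 control replicate 2. By limma, at p under 0.05 and at least 1.2-fold, 206 of 13084 blood genes differed between D2 susceptible and control mice by label. By column name 890 did and without the 2 mice 519, against 589 in B6 blood. The study reports more such genes in D2 than in B6 blood. Which grouping is right was not tested. D2 results for the members and Sfmbt2 are also given with the column names in place of the labels and without these 2 mice, and for the other genes a change is given where a call printed below is lost or gained with these groupings.

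Every D2 mouse had more reads of these miRNAs in its blood than any B6 mouse. Levels are given as RPM, the member reads over all miRNA reads of a library on the scale of CPM. The 11 members together took 107 ± 14.3 RPM in B6 control mice (SD, n = 5), 108 ± 27.4 in B6 resilient mice (n = 5) and 109 ± 16.98 in B6 susceptible mice (n = 5). They took 351, 291, 397, 329 and 436 RPM in the D2 control mice (361 ± 56.9, n = 5) and 321, 255, 333, 284 and 199 in the D2 susceptible mice (278 ± 54.1, n = 5). By column name the means were 354 ± 68.9 and 285 ± 52.6 (n = 5 each), and without the 2 mice 378 ± 47.8 and 284 ± 60.6 (n = 4 each). The highest of the 15 B6 mice had 142 RPM and the lowest of the 10 D2 mice had 199, so the strains did not overlap, however the 2 mice were grouped. Blood libraries held 6916739 to 10113657 miRNA reads, of which 664 to 3431 were on the members. The 95% Wilson interval of the lowest D2 library ran from 190 to 208 RPM and that of the highest B6 library from 134 to 150. These intervals cover counting error only.

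**Figure D1:**
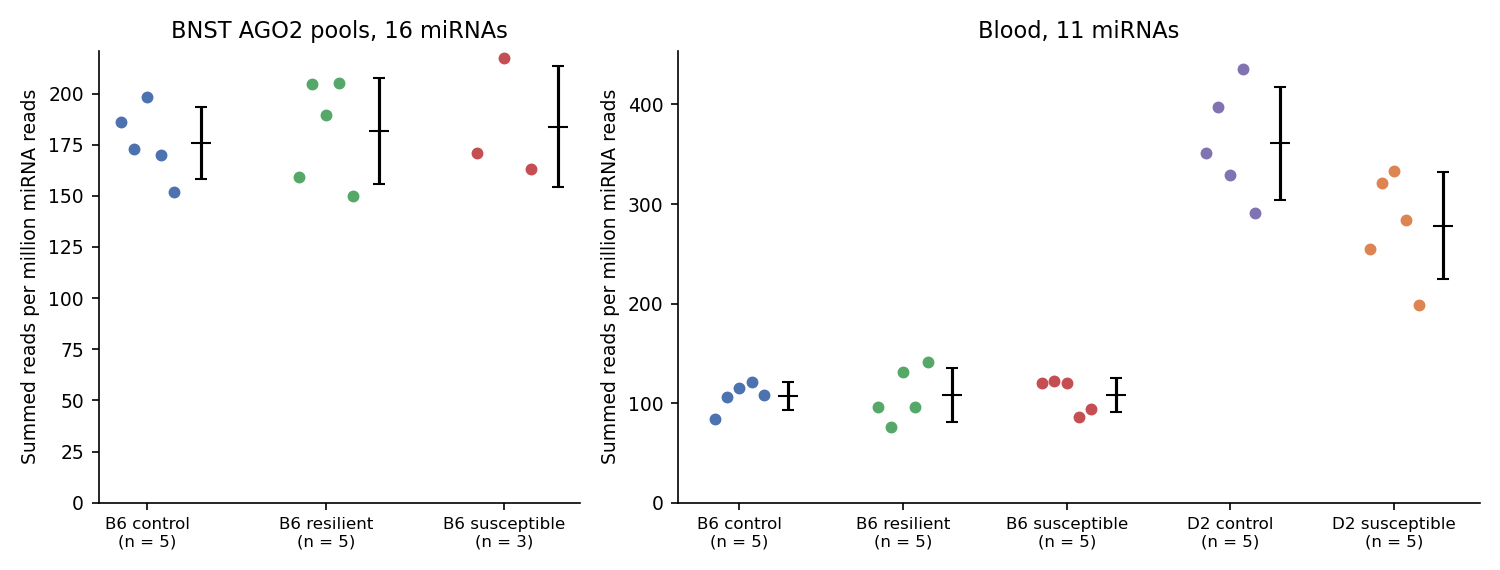
Reads on the miR-297, miR-466, miR-467 and miR-669 members as RPM (vertical axes, from 0), with 1 point per BNST pool (left, 16 members) or mouse (right, 11 members) and the mean ± SD in black. The D2 points lie between 199 and 436, above the B6 points between 75.8 and 142, and the 3 BNST groups overlap.

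Level was set by a few members. In blood, miR-467e-5p, miR-669c-5p and miR-467c-5p were the most abundant and took 31.9%, 23.6% and 22.7% of the member reads, averaged over the 25 mice. This order differed by strain, as the shares below give: miR-467e-5p came first in the mean of the B6 mice, ahead of miR-467c-5p and then miR-669c-5p, and miR-669c-5p came first in that of the D2 mice. MiR-467e-5p ranked 82nd of 299 miRNAs by mean level and miR-297b-5p, the lowest member, ranked 295th with 0 to 11 reads per mouse. All 11 members in blood were 5p arms. The blood data as a whole held 17 rows of a 3p arm among 299 (5.69%), against 367 of 788 in BNST (46.6%), so the missing 3p arms were not particular to these families.

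Each abundant member was higher in D2 controls. For miR-669c-5p, log2 CPM (reads scaled to a common library size) were 4.00, 3.93, 4.11, 4.70 and 4.76 in the B6 controls and 5.92, 5.98, 6.59, 6.51 and 6.79 in the D2 controls. Every D2 control lay above every B6 control, with a difference of 2.06 ± 0.23 (log2, SE), or 4.17-fold. For miR-467e-5p, log2 CPM were 5.12, 5.23, 5.47, 5.48 and 5.29 in B6 controls and 6.82, 6.50, 6.65, 6.90 and 6.35 in D2 controls. These groups did not overlap either, and differed by 1.33 ± 0.23, or 2.51-fold. For miR-467c-5p, log2 CPM were 4.61, 4.62, 4.92, 4.94 and 4.76 in B6 controls and 6.47, 5.61, 6.44, 6.27 and 6.31 in D2 controls. The lowest D2 control, replicate 2, is 1 of the 2 mice with disagreeing names, and it was still above all B6 controls (difference 1.45 ± 0.20, or 2.74-fold).

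The other members lay on the same side. MiR-467d-5p was 2.97-fold, miR-669o-5p 2.93-fold, miR-669l-5p 3.38-fold and miR-669d-5p 2.45-fold higher in D2 controls. The differences of the 11 members ran from 1.29 to 2.46 (log2) with a median of 1.76, beside a median of -0.05 over all 299 miRNAs. A miRNA was called when its p was under 0.05 with at least a 1.2-fold change. All 11 were called here, all higher in D2, where 25.4% of all miRNAs were called and 13.4% were called higher in D2. Nothing is read from this count, because the contrast was known when the members were taken. Moreover, 4 of the 11 (miR-297b-5p, miR-466h-5p, miR-669f-5p and miR-669h-5p) reached 1 CPM in fewer than 6 of the 15 B6 mice. They passed the filter of the data (1 CPM in 6 libraries) only with D2 libraries, which favours a higher level in D2. The other 7 passed on B6 libraries alone. With the column names as groups the 11 differences ran from 1.29 to 2.22 (median 1.63), and without the 2 mice from 1.37 to 2.43 (median 1.91), with 11 called each time, where 28.4% and 27.8% of all miRNAs were called.

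**Figure D2:**
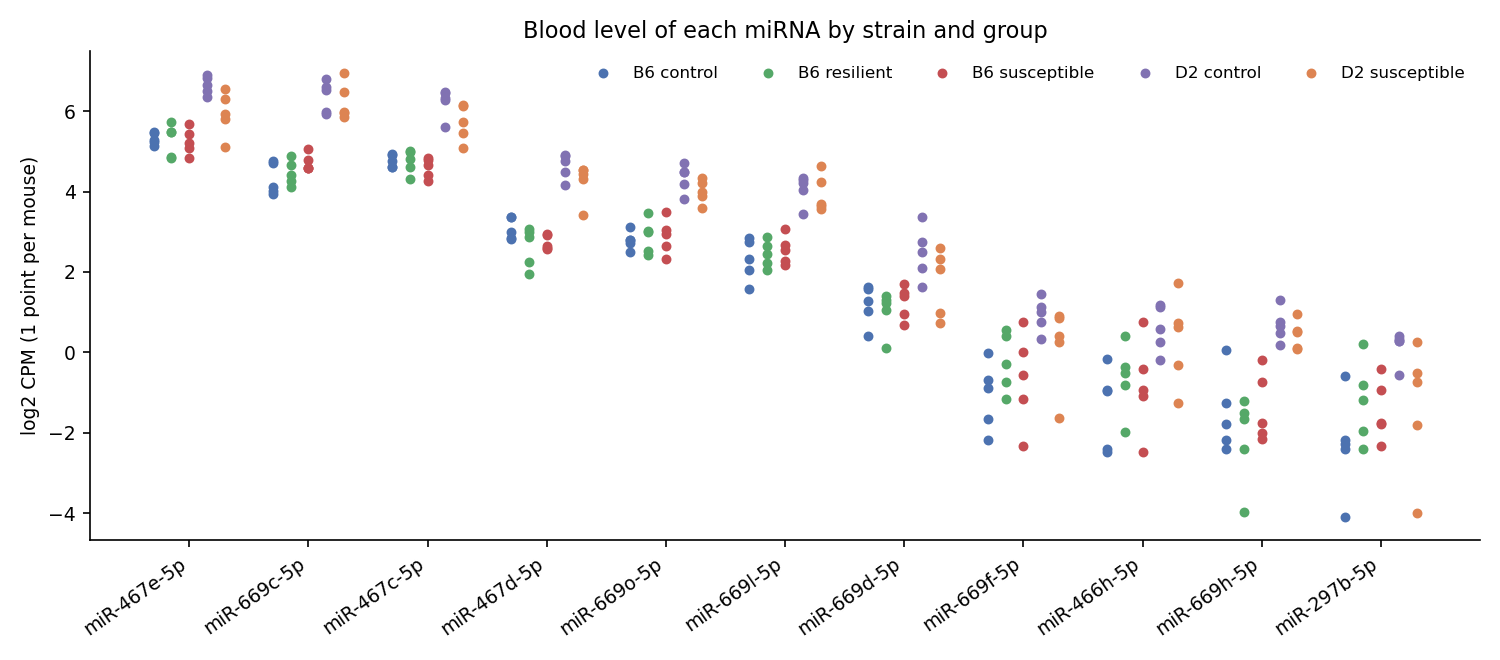
Blood log2 CPM (vertical axis) of the 11 members, ordered from the most to the least abundant, with 1 point per mouse coloured by strain and group. For miR-467c-5p, miR-467d-5p, miR-669c-5p, miR-669h-5p, miR-669l-5p and miR-669o-5p all 10 D2 mice lie above all 15 B6 mice.

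Susceptible mice gave the same comparison in other animals. This comparison was added after the data had been seen. Of the 7 members that passed the filter on B6 libraries alone, 6 were called higher in D2 susceptible than in B6 susceptible mice (limma, adjusted p over all miRNAs from 1.85e-05 to 0.0301), where 34.4% of all miRNAs were called and 13.7% were called higher in D2. Of all 11, 7 were called. MiR-669c-5p was 4.58, 4.80, 5.06, 4.58 and 4.58 log2 CPM in B6 susceptible mice and 5.95, 5.98, 6.95, 6.49 and 5.86 in D2 susceptible mice. The groups did not overlap (difference 1.53 ± 0.23, 2.88-fold). MiR-467d-5p was 2.86-fold, miR-669l-5p 2.64-fold, miR-467c-5p 2.17-fold and miR-669o-5p 2.17-fold higher in D2, with no overlap of the groups for any of the 4. The share of all miRNAs without overlap in this comparison is not given, so nothing is read from how many members did not overlap. The other member called, miR-669h-5p, had 1 to 15 reads per mouse and a 3.49-fold difference, which is given as a value only, since it passed the filter through the D2 libraries.

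MiR-467e-5p was 5.42, 5.67, 5.08, 4.83 and 5.19 log2 CPM in B6 susceptible and 6.55, 6.30, 5.79, 5.92 and 5.11 in D2 susceptible mice. Here the lowest D2 mouse, replicate 5, fell within the B6 range, and the difference was 0.70 ± 0.23 (1.62-fold, adjusted p = 0.0301). The 4 members not called were miR-669d-5p (0.50 ± 0.37), miR-669f-5p (0.81 ± 0.55), miR-466h-5p (1.14 ± 0.60) and miR-297b-5p (0.08 ± 0.69), all log2 differences with SE. The median difference of the 11 was 1.12. The same 7 were called with the column names as groups and without the 2 mice, where 35.8% and 35.1% of all miRNAs were called, but without the 2 mice miR-467e-5p no longer passed adjustment (0.60 ± 0.24, adjusted p = 0.0684 by limma).

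**Figure D3:**
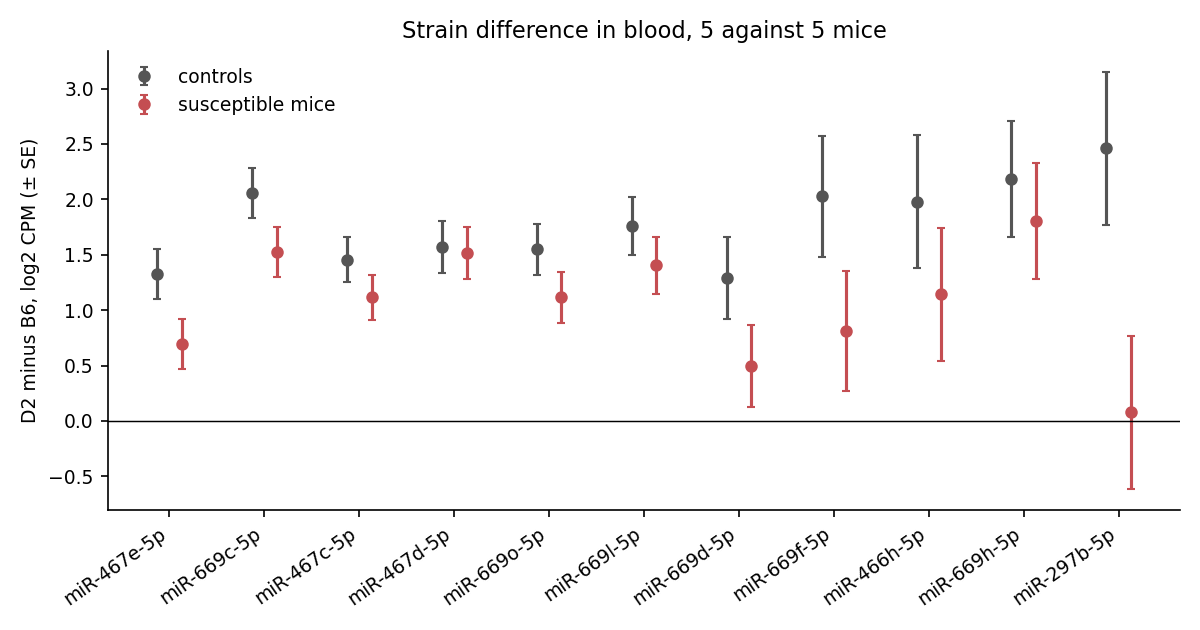
D2 minus B6 difference in blood log2 CPM (vertical axis, ± SE) for each of the 11 members, in 5 against 5 control mice (grey) and 5 against 5 susceptible mice (red). All grey points lie between 1.29 and 2.46, and the red points between 0.08 and 1.80.

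Over all groups, 6 of the 11 members had every D2 mouse above every B6 mouse, and 11 of all 299 miRNAs did (3.68%). Of the 7 members that passed the filter on B6 libraries alone, 5 did, and the other of the 6 was miR-669h-5p. Nothing is read from these counts, since they hold the control mice whose difference was known. For miR-467e-5p 9 of 10 D2 mice lay above all B6 mice, and for miR-297b-5p 5 of 10 did. The names of all B6 mice start with EC and those of all D2 mice with ED, followed by a number, so strain and this name prefix cannot be told apart. Among mice with the number 3 (2 D2 and 7 B6) the difference of miR-669c-5p was 1.49 (log2), and among mice with the number 4 (4 D2 and 8 B6) it was 1.81. For miR-467e-5p the same differences were 1.46 and 0.81.

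The spread of the reads over the members is given by strain without a test, with the groups of a strain pooled. MiR-669c-5p took 20.5% ± 4.37 of the member reads in the 15 B6 mice (SD) and 28.1% ± 7.77 in the 10 D2 mice. MiR-467e-5p took 34.8% ± 3.43 in B6 and 27.5% ± 5.67 in D2. MiR-467c-5p, at 23.3% ± 1.76 and 21.7% ± 2.92, and miR-669o-5p, at 6.46% ± 0.87 and 6.22% ± 0.71, took shares of similar size in both strains.

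Markers of blood cells differed between the strains too. Of 3 erythroid miRNAs measured, miR-144-5p was 0.67 ± 0.26 (log2) lower in D2 controls, while miR-451a, the most abundant of them at 17.6 to 18.7 log2 CPM over the 25 mice, was 0.25 ± 0.18 lower and not called. The leukocyte miR-142a-5p was 1.30 ± 0.36 lower in D2 controls, and the lymphocyte miR-150-5p differed by 0.69 ± 0.45 and was not called. Among mRNA markers, 5 of 5 B cell genes and 2 of 5 natural killer genes (Klrb1c and Klrk1) were called lower in D2 controls. Called higher were 3 of 5 platelet genes (Ppbp, Gp9 and Treml1), 2 of 5 neutrophil genes (Csf3r and Cxcr2), 2 of 5 T cell genes (Cd3g and Lck) and 1 of 5 monocyte genes (Ccr2), where 26.4% of all genes were called in either direction. By column name the platelet gene Itga2b and the T cell gene Cd3d were called higher as well, and without the 2 mice Cd3d was called and Ccr2 was not. In D2 against B6 susceptible mice the leukocyte miR-142a-5p (-1.41) and the erythroid miR-144-5p were called lower, and miR-451a, miR-486a-5p and miR-150-5p were not called. Of all miRNAs 34.4% were called there. In both other groupings miR-451a was called lower and miR-486a-5p higher, and by column name miR-150-5p was called higher as well. Of the mRNA markers in susceptible mice by label, 0 of 5 B cell genes were called, where 23.7% of all genes were. Klrb1c, Klrk1, the platelet gene Pf4, the neutrophil gene Mmp9 and the monocyte gene Ly6c2 were called lower in D2. Cd3d and Cd3g were called higher. In both other groupings Mmp9, Ly6c2 and Cd3d were not called, and the natural killer gene Ncr1 was called higher. By column name Itga2b was called lower and Ccr2 higher as well. Fewer cells of a type and less RNA per cell cannot be told apart in whole samples, and the part of cell makeup in the strain difference was not tested.

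No member was called after defeat in B6 blood. Resilient against control mice gave 0 of 11 called where 4.35% of all miRNAs were called, susceptible against control mice 0 of 11 where 4.01% were called, and susceptible against resilient mice 0 of 11 where 3.01% were called (limma). At an unadjusted p under 0.05 the counts were also 0. The median log2 differences were 0.11, 0.15 and 0.00 in this order. The smallest unadjusted p values were 0.0693 for miR-467d-5p in resilient mice (-0.45 ± 0.24, adjusted p = 0.949) and 0.0776 for miR-669c-5p in susceptible mice (0.42 ± 0.23, adjusted p = 0.980).

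In D2 blood 3 of the 11 members were called lower in susceptible than in control mice, where 8.7% of all miRNAs were called. Of the 7 members that passed the filter on B6 libraries alone, 2 were called, miR-467e-5p and miR-467c-5p. The D2 controls here are the mice of the strain difference that was known when the members were taken, so these differences and the difference of effects below share those controls and are not independent of that choice. By limma, none of the 3 passed adjustment over all miRNAs under the labelled groups. MiR-467e-5p was 6.82, 6.50, 6.65, 6.90 and 6.35 log2 CPM in controls and 6.55, 6.30, 5.79, 5.92 and 5.11 in susceptible mice. Susceptible mice 2 to 5 lay below all controls, and the difference was -0.71 ± 0.23 (adjusted p = 0.315 by limma). The exact two-sided permutation test gave p = 0.0317, where 0.00794 is the smallest that 5 against 5 mice allow. By column name it gave 0.0635, and without the 2 mice 0.0571, where 0.0286 is the smallest that 4 against 4 mice allow.

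MiR-467c-5p was 6.47, 5.61, 6.44, 6.27 and 6.31 log2 CPM in D2 controls and 6.13, 6.15, 5.74, 5.46 and 5.09 in D2 susceptible mice. Control replicate 2 was the lowest control and susceptible replicate 2 the highest susceptible mouse, and the difference was -0.51 ± 0.20 (adjusted p = 0.539 by limma; exact permutation p = 0.0714). The groups did not overlap by column name or without the 2 mice. The call by label was lost with quantile normalization (-0.33), with only the compared groups fitted (-0.51) and without susceptible replicate 4 (-0.45) or 5 (-0.35). MiR-297b-5p was at 6 to 10 reads in the D2 controls and 9, 0, 6, 2 and 6 reads in the susceptible mice (log2 difference -1.51 ± 0.69, adjusted p = 0.539, limma), so this call rested on few reads. It reached 1 CPM in 6 libraries, 4 of them D2 controls, so it passed the filter mainly through the group in which it was high. The differences of the 11 members, which share these controls, were below 0 with a median of -0.40, and nothing is read from their shared sign. Least changed were miR-669l-5p (-0.10 ± 0.26) and miR-669c-5p (-0.11 ± 0.23).

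The 2 mice with disagreeing names decided how many members were called. With groups by column name 6 of 11 were called lower, where 12.4% of all miRNAs were called. These were miR-467c-5p (-0.72 ± 0.17, adjusted p = 0.0342, limma), miR-467d-5p (-0.50 ± 0.23), miR-467e-5p (-0.63 ± 0.23), miR-669d-5p (-1.12 ± 0.33), miR-669l-5p (-0.58 ± 0.23) and miR-669o-5p (-0.48 ± 0.22), and miR-467c-5p alone of the 11 passed adjustment. Without the 2 mice 4 were called, where 12.4% of all miRNAs were called as well: miR-467c-5p (-0.77 ± 0.20, adjusted p = 0.0858), miR-467e-5p (-0.84 ± 0.25, adjusted p = 0.176), miR-669d-5p (-1.15 ± 0.38, adjusted p = 0.176) and miR-467d-5p (-0.56 ± 0.26, adjusted p = 0.346), all by limma. MiR-297b-5p changed from -1.51 by label to -0.81 without the 2 mice and 0.21 by column name. MiR-669c-5p stayed at -0.11, -0.14 and -0.11.

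**Figure D4:**
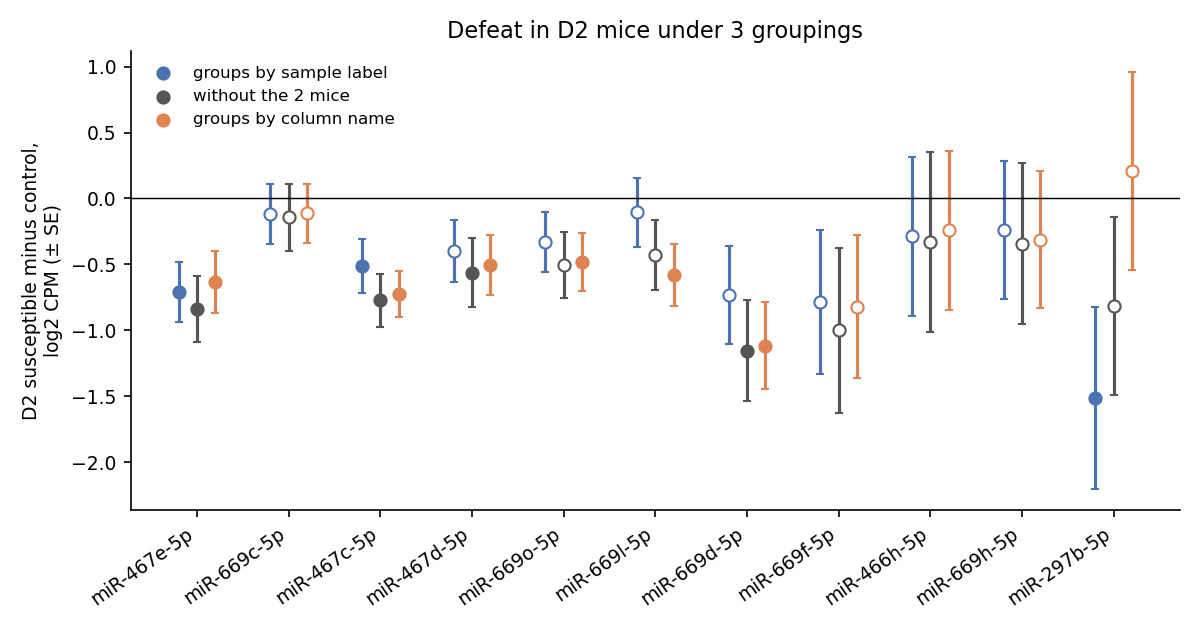
D2 susceptible minus control difference in blood log2 CPM (vertical axis, ± SE) for the 11 members with groups by sample label, without the 2 mice whose label and column name disagree, and with groups by column name. Filled points were called (p under 0.05 and at least 1.2-fold): 3, 4 and 6 in this order.

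Within name prefixes the D2 groups were small, and they are given by label. For miR-467e-5p the difference between susceptible and control mice was -0.27 for prefix ED3 (1 against 1 mouse), -0.49 for ED4 (3 against 1) and -1.52 for ED6 (1 against 3). For miR-467c-5p it was -0.34, 0.17 and -1.25, so ED4, which holds both mice with disagreeing names, went the other way. By column name the ED4 control, mouse ED4_15, was at 6.15 log2 CPM, above all ED4 susceptible mice, so ED4 then went the same way.

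The defeat effect was then compared between strains. The difference of effects, D2 minus B6, was called for 1 of 11 members, miR-297b-5p (-2.38 ± 0.98, adjusted p = 0.779 by limma), where 4.35% of all miRNAs were called. This member passed the filter only with D2 libraries, and of the 7 that passed on B6 libraries alone 0 were called. MiR-467e-5p had -0.63 ± 0.32 (adjusted p = 0.918) and miR-467c-5p -0.34 ± 0.29 (adjusted p = 0.933), both by limma. Which members were called turned on the 2 mice. By column name miR-297b-5p was at -0.66 ± 1.07 and not called, while 3 members that passed on B6 libraries alone were called, miR-467c-5p (-0.55 ± 0.25), miR-669d-5p (-1.18 ± 0.46) and miR-669l-5p (-0.83 ± 0.33), where 6.69% of all miRNAs were called. Without the 2 mice it was at -1.69 ± 0.90 and not called, while miR-467c-5p (-0.60 ± 0.27), miR-467e-5p (-0.76 ± 0.34) and miR-669d-5p (-1.22 ± 0.51) were called, where 5.69% of all miRNAs were called. None passed adjustment in either grouping (adjusted p from 0.506 to 0.717 for those called, limma).

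In BNST the order of the members was another. MiR-669c-5p took 49.6% ± 5.76 of the member reads (SD over 13 pools) and miR-467d-5p 15.6% ± 3.64, while miR-467e-5p took 4.38% ± 1.48. MiR-669c-5p ranked 233rd of 788 miRNAs and miR-297b-5p, the lowest member, ranked 786th, at 0 to 10 reads per pool. The 6 members not in the blood data were miR-466d-3p, both copies of miR-466f-3p, miR-466g, miR-466q and miR-669f-3p. From the Mir669f hairpin the 3p arm had 1 to 48 reads per pool and the 5p arm 0 to 17. Copy 2 of miR-466f-3p had 25 to 149 reads and copy 3 had 2 to 19.

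The labelled tissue was partly borne out by its markers. Snap25, a synaptic protein gene, was the most abundant neuronal marker in AGO2 mRNA, at 9.19 ± 0.15 log2 CPM in control pools (SD, n = 5), and the brain miRNA miR-128-3p reached 14.1 to 14.9 log2 CPM (copy 1) over the 13 pools. MiR-124-3p (copy 1) and miR-9-5p, also known as brain miRNAs, were low in these data, with medians of -2.74 and 0.51. The erythroid miR-451a was at 6.51 to 7.99 log2 CPM in these pools.

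No member was called between the BNST groups. The 16 members took 176 ± 17.6 RPM in control pools (SD, n = 5), 182 ± 25.8 in resilient pools (n = 5) and 184 ± 29.4 in susceptible pools (n = 3). Called were 0 of 16 in resilient against control pools, where 9.52% of all miRNAs were called, 0 of 16 in susceptible against control pools (4.7% called) and 0 of 16 in susceptible against resilient pools (3.93% called). By limma, no member had an unadjusted p under 0.05 in any of the 3, and the median differences were 0.04, 0.01 and 0.06.

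MiR-669c-5p was 6.73, 6.55, 6.76, 6.28 and 6.17 log2 CPM in control pools, 6.03, 6.78, 6.64, 6.69 and 6.34 in resilient pools and 6.23, 6.85 and 5.92 in susceptible pools. The 3 groups overlapped throughout, with a difference of 0.00 ± 0.19 for the resilient pools and -0.16 ± 0.22 for the susceptible pools, each against controls. MiR-467d-5p differed by -0.02 ± 0.23 and 0.16 ± 0.27 in the same order, miR-467e-5p by 0.23 ± 0.33 and 0.21 ± 0.38, miR-467c-5p by 0.17 ± 0.33 and 0.24 ± 0.38, and miR-466f-3p-2 by -0.36 ± 0.30 and 0.14 ± 0.34. MiR-466d-3p differed by 0.15 ± 0.38 and -0.12 ± 0.44, and miR-466g by 0.50 ± 0.38 and -0.22 ± 0.44.

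Among the rare members the spread was wider. MiR-669f-3p had 0.52, 2.18, 0.83, 3.45 and -1.15 log2 CPM in control pools and 2.92, 2.88 and 2.05 in the 3 susceptible pools, a difference of 1.45 ± 0.86 (adjusted p = 0.933, limma). MiR-669l-5p had 1.92, 2.00, 1.77, 2.14 and 1.90 in control pools and -1.10, 1.69 and 2.59 in the susceptible pools, a difference of -0.89 ± 0.62 (adjusted p = 0.944, limma). A single susceptible pool, replicate 1 at 2 reads, carried this value. Libraries of BNST miRNA held 3173294 to 9404828 reads, and 513 to 1929 of them were on the members, and 13 of the 16 members had fewer than 20 reads in at least 1 pool.

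Sfmbt2 itself encodes a Polycomb group protein, of the complexes that keep genes silent through chromatin. Its mRNA was also higher in D2 than in B6 blood. Sfmbt2 was 1.24, 1.09, 1.73, 2.28 and 1.54 log2 CPM in B6 controls and 3.29, 3.00, 3.13, 3.35 and 3.41 in D2 controls. All D2 controls lay above all B6 controls, with a difference of 1.66 ± 0.21, or 3.16-fold, where 26.4% of all genes were called; as for the members, this is a description. By column name the difference was 1.66 ± 0.21 and without the 2 mice 1.72 ± 0.23, where 29.8% and 28.3% of all genes were called. In susceptible mice it was 2.84, 2.20, 2.43, 2.10 and 1.64 in B6 and 2.81, 2.98, 2.90, 2.81 and 2.94 in D2. The groups overlapped through B6 replicate 1, and D2 was 0.65 ± 0.21 higher (1.57-fold, adjusted p = 0.0402 by limma), where 23.7% of all genes were called. Without the 2 mice with disagreeing names the adjusted p was 0.0874, and with the column names it was 0.0385 (limma; 22.3% and 24.7% of all genes called).

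Defeat was compared within each strain. The controls here are those whose strain difference was known, so comparisons with them and the difference of effects are not independent of that choice. In B6 blood Sfmbt2 was 0.67 ± 0.21 higher in susceptible than in control mice and called (1.59-fold, adjusted p = 0.968 by limma, exact permutation p = 0.0635), where 4.5% of all genes were called. This call was lost with a pseudocount of 2 CPM (0.34) and with voom on recovered reads (0.49). Resilient against control mice gave 0.43 ± 0.21 (adjusted p = 0.985 by limma, not called), where 2.11% were called, and susceptible against resilient mice 0.24 ± 0.21, where 2.03% were called. In D2 blood susceptible mice were at 2.81 to 2.98 log2 CPM and controls at 3.00 to 3.41, without overlap, a difference of -0.35 ± 0.21 that was not called (adjusted p = 0.999 by limma), where 1.57% were called. Its exact two-sided permutation p of 0.00794 is the smallest that 5 against 5 mice allow. By column name the groups overlapped (2.81 to 3.00 against 2.98 to 3.41, difference -0.34 ± 0.21, exact permutation p = 0.0159). Without the 2 mice they did not overlap (difference -0.43 ± 0.24, exact permutation p = 0.0286, the smallest that 4 against 4 mice allow). It was called in neither, where 6.8% and 3.97% of all genes were called. The difference of effects, D2 minus B6, was -1.01 ± 0.30 and called (adjusted p = 0.918 by limma), where 5.37% of all genes were called; by column name it was -1.01 ± 0.30 and without the 2 mice -1.10 ± 0.33, both called, where 10.1% and 8.18% were called.

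**Figure D5:**
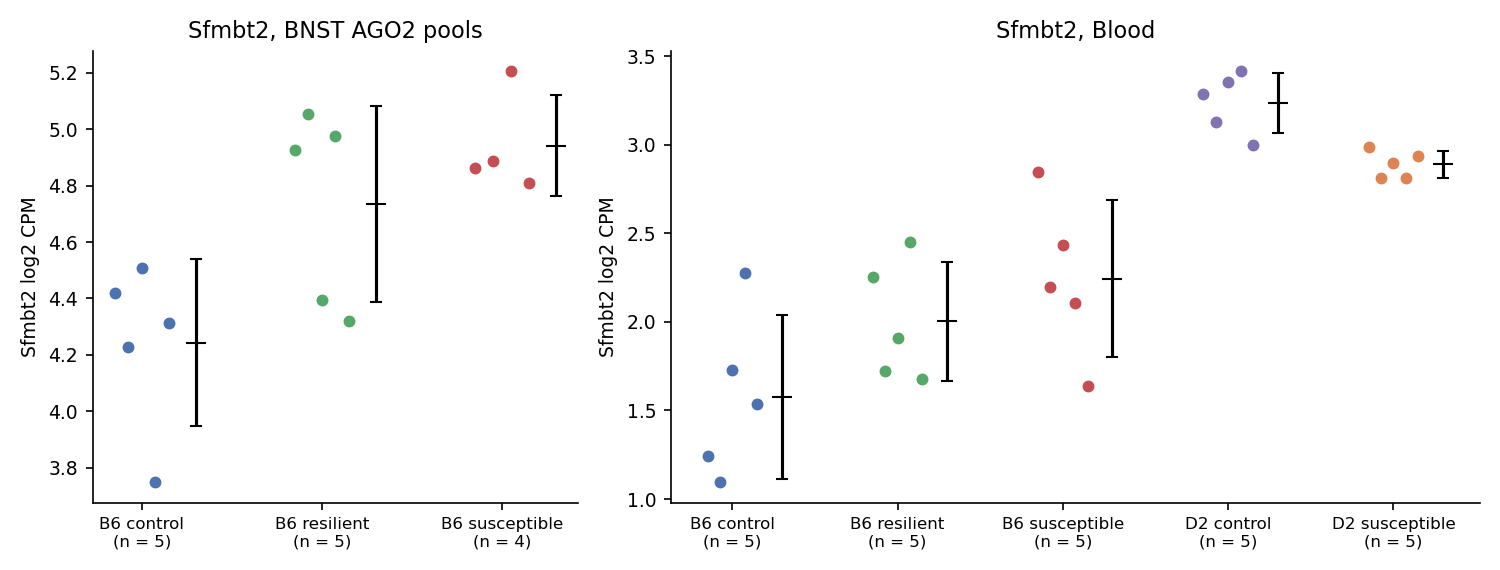
Sfmbt2 mRNA as log2 CPM (vertical axes, which do not start at 0) in BNST AGO2 pools (left) and blood (right), with 1 point per pool or mouse and the mean ± SD in black. D2 mice lie between 2.81 and 3.41 and B6 mice between 1.09 and 2.84.

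Platelet genes were called in some of the same blood comparisons as Sfmbt2. The summed level of 5 platelet markers was 3467 ± 1495 CPM in B6 controls (SD, n = 5), 4695 ± 1371 in B6 resilient mice and 6059 ± 2542 in B6 susceptible mice. It was 7464 ± 3455 in D2 controls and 5601 ± 2053 in D2 susceptible mice, with no marker at 0 in every mouse of a group. Ppbp, a platelet chemokine gene, was the most abundant. In B6 susceptible against control mice 4 of 5 were called higher (Ppbp 0.89 ± 0.40, Itga2b 0.90 ± 0.42, Gp9 0.86 ± 0.37 and Treml1 0.87 ± 0.37), and the same 4 were called lower in the difference of effects. Of all genes 4.5% and 5.37% were called in these 2 comparisons. Sfmbt2 was higher in D2 in both strain comparisons. In D2 against B6 controls 3 of 5 platelet markers were called higher (Ppbp, Gp9 and Treml1). In D2 against B6 susceptible mice 0 of 5 were called higher and Pf4 was called lower. Of all genes 26.4% and 23.7% were called in these 2 comparisons. By column name the summed level was 8242 ± 2636 CPM in D2 controls and 4823 ± 2017 in D2 susceptible mice, and 4 of 5 were then called lower in D2 susceptible than in control mice (Ppbp, Pf4, Itga2b and Treml1), where 0 of 5 were by label and 0 of 5 without the 2 mice (limma). Of all genes 6.8% were called in that comparison by column name. Pf4 joined the 4 in the difference of effects in both other groupings, and by column name Itga2b was called lower in D2 than in B6 susceptible mice. The part of platelets in the Sfmbt2 values was not tested.

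Mouse by mouse, Sfmbt2 mRNA and the 3 most abundant members were compared within each strain, in 6 relations. Control and defeated mice of a strain were pooled, so differences between groups can enter these values. In D2 both Sfmbt2 and miR-467c-5p had lower means in susceptible than in control mice, and in B6 both Sfmbt2 and miR-669c-5p had higher ones. In the 15 B6 mice Pearson's r was 0.53 for miR-669c-5p (permutation p = 0.0428, adjusted 0.128), with Spearman's rho 0.45 (p = 0.0907, adjusted 0.229). In the 10 D2 mice r was 0.64 for miR-467c-5p (permutation p = 0.0375, adjusted 0.128), with rho 0.68 (p = 0.035, adjusted 0.210). Without the 2 mice farthest from the median of Sfmbt2 these values of r were 0.44 and 0.60. The other 4 relations had r from 0.10 to 0.54 with adjusted permutation p from 0.173 to 0.726, so none of the 6 passed adjustment.

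In BNST, where no member was called, Sfmbt2 mRNA bound to AGO2 was called higher after defeat. It was 4.42, 4.23, 4.51, 3.75 and 4.31 log2 CPM in control pools and 4.86, 4.89, 5.21 and 4.81 in susceptible pools. The groups did not overlap, and the difference was 0.70 ± 0.18 (1.62-fold, adjusted p = 0.0391 by limma; exact permutation p = 0.0159, the smallest that 5 against 4 pools allow), where 18.9% of all genes were called. Resilient pools had 4.92, 5.05, 4.39, 4.98 and 4.32, with 3 of 5 above all controls and a difference of 0.49 ± 0.17 (1.40-fold, adjusted p = 0.121 by limma), where 17.7% were called. Susceptible against resilient pools differed by 0.21 ± 0.18 and were not called, where 2.14% were called. AGO2 mRNA libraries held 3701281 to 10659882 reads. In the same susceptible pools 4 of 5 choroid plexus markers were called lower, and their summed level was 30.5 ± 20.9 CPM against 115 ± 71.9 in controls, with Clic6 the most abundant and none at 0 in every pool. Of the 5 neuronal markers 3 were called lower, summed 1258 ± 182 against 1644 ± 141 CPM. The part of cell makeup in the Sfmbt2 value was not tested. All BNST mRNA values here are of mRNA bound to AGO2, and total BNST mRNA was not analysed. The amount of an mRNA and its binding to AGO2 cannot be told apart in them.

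The genes next to Sfmbt2 were read in the same way. Of the 6 nearest protein coding genes, 5 were measured in both mRNA data sets (Kin, Itih5, Prkcq, Pfkfb3 and Rbm17). The product of Itih5 stabilises the hyaluronan matrix. In BNST AGO2-bound mRNA Itih5 was called lower in resilient pools (-0.48 ± 0.16) and in susceptible pools (-0.40 ± 0.17). The other 4 were not called, where 17.7% and 18.9% of all genes were called. In blood 1 of 5 was called in the strain comparison of controls, Prkcq, a T cell kinase gene, at 0.36 ± 0.16 higher in D2. In that of susceptible mice 0 of 5 were called. Of all genes 26.4% and 23.7% were called in these 2 comparisons. Prkcq was also called in the difference of defeat effects, D2 minus B6 (-0.55 ± 0.22), where 5.37% of all genes were called. In D2 susceptible against control mice it was called by column name (-0.42 ± 0.14) and without the 2 mice (-0.43 ± 0.16) but not by label (-0.27). There 6.8%, 3.97% and 1.57% of all genes were called in this order.

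Of the 6 Polycomb partners, Ring1 encodes a ubiquitin ligase of Polycomb complexes. In AGO2-bound mRNA Ring1 was called higher in resilient (0.39 ± 0.11) and susceptible BNST pools (0.37 ± 0.12). In susceptible pools L3mbtl2 was called higher (0.33 ± 0.10) and Yy1 lower (-0.28 ± 0.12). These were 1 of 6 in resilient pools, where 17.7% of all genes were called, and 3 of 6 in susceptible pools, where 18.9% were. In blood 0 of 6 were called in any of the 4 comparisons within a strain. In the strain comparison of controls Pcgf6 was called lower in D2 (-0.42 ± 0.19), and in that of susceptible mice Rnf2 was called higher (0.50 ± 0.12) and Ring1 lower (-0.44 ± 0.20), where 26.4% and 23.7% of all genes were called. By column name Sfmbt1 (0.60 ± 0.26) and Rnf2 (0.32 ± 0.12) were also called higher in D2 controls, and without the 2 mice Rnf2 was (0.31 ± 0.13).

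A list of 13 genes that process miRNAs or act with them was read as well. Dicer1, which cuts hairpins to mature miRNAs, was called higher in AGO2-bound mRNA of resilient (0.37 ± 0.08, adjusted p = 0.0292) and susceptible BNST pools (0.35 ± 0.08, adjusted p = 0.0316, both by limma). Ago4 (0.28 ± 0.12) and Tnrc6a (0.29 ± 0.12) were also called higher in resilient pools, Xpo5 (0.26 ± 0.09) and Tarbp2 (0.32 ± 0.12) in susceptible pools, and Tnrc6c was called lower in susceptible than in resilient pools (-0.31 ± 0.13). The calls against controls were 3 of 13 in resilient and 3 of 13 in susceptible pools, near the 17.7% and 18.9% called among all genes. In blood 0 of 13 were called in any comparison within a strain. Drosha, which releases hairpins from the primary transcript, was called higher in D2 mice in controls (0.83 ± 0.26) and in susceptible mice (0.76 ± 0.26, adjusted p = 0.0462 by limma), as was Ago2 (0.64 ± 0.26 and 0.95 ± 0.26). Tnrc6c was called lower in D2 in both (-0.33 ± 0.12 and -0.35 ± 0.12), and Ago1 in susceptible mice (-0.44 ± 0.13). These 3 and 4 of 13 were near the 26.4% and 23.7% called among all genes, and the same genes were called in both other groupings of the D2 mice. Drosha in susceptible mice passed adjustment in neither of them (adjusted p = 0.156 by column name and 0.0856 without the 2 mice, limma).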

How the data were processed

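The deposited values were log2 CPM, made by the authors with voom from reads per miRNA or gene. Per the labels and the study's methods, miRNA reads were counted against miRBase with miRDeep2, and mRNA reads were aligned to GRCm38 and counted with HTSeq; the submitters' processing notes also name limma and Bowtie 1.1.1. Rows had been filtered at 1 CPM in at least 6 blood or 3 BNST libraries. Whole reads were recovered from each column (all 577037 values were whole within 1e-04), and RPM use the sum of the listed rows. The authors' voom step added 0.5 to every read count, so that 0 reads also had a log2 value.

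Differences were fitted to the deposited log2 CPM of all rows with limma 3.58.1 in R 4.3.3 (empirical Bayes with a mean-variance trend, every group of the data set fitted together, Benjamini-Hochberg adjustment over all rows). A call was p under 0.05 with at least a 1.2-fold change. The fit was tested on simulated data, from which no result is given or read here. Single members were also tested by exact permutation (scipy 1.17.1). P-values cover the spread between pools or mice.

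The families, gene lists and tests were chosen with earlier results of these data known. Members were named by a rule: the 8 most abundant and the lowest of each data set, up to 8 called members per comparison by smallest p, and the other arm of their hairpins. Other members given values (among them miR-669f-3p in BNST) were chosen after their values were seen. Alternatives were the trend, sample weights, quantile normalization, only the groups compared, a minimum mean log2 CPM of 2, a pseudocount of 2 CPM, voom on recovered reads, a principal component, a replicate block in BNST, the name prefix, the groupings of the D2 mice and leaving out each library. The study corrected the BNST miRNA data for surrogate variables and the AGO2 mRNA data for the experimental cohort. The deposited values, which return whole reads, include neither correction, and the cohort of a pool was not used here, so the BNST calls are without it. The erythroid mRNA marker list is not reported here.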

Additional observations from a re-analysis of the deposited data

Results flagged for a closer look

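In 95 groups of 4 or 5 samples, 7 had 1 sample far from the rest of its group by Dixon's ratio of gap to range, where chance gives about 1 in 20. MiR-297b-5p was high in BNST control pool 2, at 1.14 log2 CPM (8 reads; the next pool was at -2.63), and in BNST resilient pool 4, at 0.12 (10 reads; next -2.91). In D2 control blood miR-297b-5p was low in replicate 5, at -0.57 (6 reads; next 0.29), and miR-467c-5p was low in replicate 2, at 5.61 (419 reads; next 6.27), which is 1 of the 2 mice whose label and column name disagree. In D2 susceptible replicate 5, miR-467d-5p was low at 3.43 (116 reads; next 4.31) and miR-669f-5p was low at -1.63 (3 reads; next 0.26). MiR-669d-5p was low in B6 resilient replicate 1 of blood, at 0.11 (8 reads; next 1.05).

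The defeat effect differed between the strains, at an unadjusted level only, for 2 items. For miR-297b-5p the D2 effect minus the B6 effect was -2.38 (log2; this member passed the filter only with D2 libraries), but -0.66 by column name and -1.69 without the 2 mice, neither called, and for Sfmbt2 mRNA in blood it was -1.01. Neither passed adjustment over all features, and the cause was not tested. Both hold the control mice whose strain difference was known, so they are not independent of that choice.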

How the results depend on the processing

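The tally of single values covers Sfmbt2 and the members called in the main fit. Of these, 598 kept their direction and their side of the threshold, 7 became called, all of them Sfmbt2 values, 19 were no longer called and 1 changed sign. Members not called in the main fit are outside it, and some became called. In D2 susceptible against control blood miR-669d-5p did so with a pseudocount of 2 CPM (-0.48). Of the counts, 184 stayed within 1.5 times and 24 moved. The 208 medians and 8 mean levels moved by less than the spread between replicates, but 26 medians changed sign, all in the 3 BNST comparisons and in B6 resilient against control and B6 susceptible against resilient blood, where medians ran from -0.24 to 0.28. In D2 control against B6 control blood 11 members were called under the alternatives run, except 6 with a minimum mean log2 CPM of 2, where fewer members were tested. In D2 against B6 susceptible mice 6 to 9 were called, where the main fit called 34.4% of all miRNAs. The share of all miRNAs called is not given here for each alternative, so nothing is read from these counts of called members. With sample weights 1 member was called in susceptible against control and 1 in susceptible against resilient BNST pools (miR-669l-5p), and 1 in each of B6 resilient and B6 susceptible against control blood (miR-467d-5p). Leaving out 1 library gave 0 to 1 called members in these 4 comparisons. The call came without control pool 4 (miR-669f-3p) or susceptible pool 4 (miR-669l-5p) in BNST, without control 4, resilient 3 or resilient 5 in B6 resilient blood, and without control 4 or 5 in B6 susceptible blood. In D2 susceptible against control mice 6 members were called by column name, and leaving out 1 mouse gave 1 to 4, with 1 without susceptible replicate 4; miR-297b-5p changed sign by column name (0.2083), and miR-467c-5p was no longer called without susceptible replicate 4 (-0.45) or 5 (-0.35), with quantile normalization (-0.33) or with only the groups compared in the fit (-0.51). MiR-297b-5p was no longer called there with the name prefix as a term (-1.22), without the 2 mice (-0.81), or without any one of control 1 to 4 and susceptible 2 or 4 (-1.48 to -0.85). For the difference of effects 3 were called by column name, 3 without the 2 mice, 0 with a minimum mean of 2 and 0 to 2 without 1 mouse. Sfmbt2 in B6 resilient blood became called with sample weights (0.4194) and quantile normalization (0.4352), with 0.3071 to 0.6027 when 1 mouse was left out, called without control 4, resilient 2 or resilient 5. Sfmbt2 in B6 susceptible blood was no longer called with a pseudocount of 2 CPM (0.3411) or voom on recovered reads (0.4923). In D2 blood it became called with sample weights (-0.3863) and with the compared groups alone (-0.3474). The cause was not tested. With the replicate block 0 members were called in the 3 BNST comparisons, and Sfmbt2 differed by 0.4899, 0.6549 and 0.165; same-numbered pools had deviations correlated from -0.1717 to 0.1402, so the numbers were not taken to pair pools. The name prefix as a term could not be fitted in the D2 against B6 comparisons of controls and of susceptible mice, where it is nested in strain. In the difference of effects it called 1 member, miR-467e-5p (-0.75, adjusted p = 0.677 by limma), and miR-297b-5p was no longer called (-2.09), as without B6 control 5 (-1.94) or D2 susceptible 2 (-1.72).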
